A study of Oryctolagus cuniculus with 12 samples.

Results

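The change in bleb conjunctiva between 3 days and 14 days after trabeculectomy was examined by comparing the 3 libraries collected at 14 days (TL14d) with the 3 collected at 3 days (TL3d). These 6 libraries were chosen by their labels from 12 in the series, and all 20566 genes of the deposited gene table belonged to the comparison. Trabeculectomy is a glaucoma operation in which aqueous humor leaves the eye through a scleral flap and collects under the conjunctiva in a filtering bleb. All 6 eyes were right eyes of female Japanese white rabbits (the labels give no age), and both groups had mitomycin C, a DNA-crosslinking drug that limits scarring, applied during surgery, followed by a conjunctival injection of betamethasone and an antibiotic ointment. The control group held 3 libraries of left conjunctiva and the TL3h group 3 libraries of bleb conjunctiva at 3 hours. Both served here to estimate the spread, and control levels are given as a background. The whole conjunctiva including the bleb was taken, so fewer cells of a type and less RNA per cell cannot be told apart in any value below.

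A conjunctival wound passes from inflammation through cell division and new matrix to remodeling. Interferon-stimulated genes encode antiviral proteins that are switched on by interferon receptors, and CCR2 guides blood monocytes into tissue, where they become macrophages. Fibroblasts and myofibroblasts lay down collagen and contract, and in a bleb this scarring is what closes the outflow path. The epithelium above is a stratified layer with goblet cells, and at rest it carries cytochrome P450 and retinoid enzymes that act on foreign compounds and vitamin A.

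In the 6 libraries compared, 3 stood apart from their groups. TL14d replicate 1 had a mean Pearson correlation across genes (log2 CPM) of 0.962 with the controls and 0.898 with the other TL14d libraries, which themselves stood at 0.883 (replicate 2) and 0.920 (replicate 3) with the controls. TL3d replicate 3 held skeletal muscle genes, with a summed level of 574 CPM over 11 markers against 4.05 and 5.82 CPM in the other TL3d libraries and 4.97 to 58.9 CPM in the TL14d libraries. Control replicate 2 held them as well (634 CPM). TL3d replicate 3 also held the most collagen, 70657 CPM summed over 20 chains against 4695 and 15350 CPM. TL14d replicate 2 held pigment cell genes at 195 CPM (8 markers) against 24.9 to 41.7 CPM in the other 5 libraries, and the corneal keratin KRT12 at 139 CPM against 0.672 to 7.62 CPM. CPM are counts scaled to a common total by the TMM-adjusted library size. Epithelial genes were present throughout, with 9635 to 22351 CPM summed over 18 conjunctival epithelium genes. The total count was 29517567 to 36567299 in the TL3d libraries and 27111276 to 33765867 in the TL14d libraries. The median SD of log2 CPM within a group was 0.21 for TL3d, 0.32 for TL14d, and 0.18 for TL14d without replicate 1.

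At 14 days, 7 of 12 interferon-stimulated genes, 8 of 24 cell cycle genes, and 3 of 19 monocyte and macrophage genes were lower than at 3 days, and a smaller set with cytochrome P450 enzymes, a retinoid enzyme, and the collagen COL22A1 was higher. Of 14835 genes tested, 332 (2.24%) passed an adjusted p of 0.05 in edgeR's quasi-likelihood test with Benjamini-Hochberg adjustment, and such genes are named called here. Of these, 236 (1.59%) were lower at 14 days, with a median decrease of 1.63 on the log2 scale, and 96 (0.647%) were higher, with a median log2 fold change of 1.44. Of the called genes, 75 of those lower and 30 of those higher at 14 days differed 4-fold or more. The groups did not overlap in any of the 332 genes, meaning that each TL14d library lay outside the range of the TL3d libraries. Such separation was common: it was met by 4065 of the genes tested (27.4%), with 2078 lower (14%) and 1987 higher (13.4%) at 14 days. An unadjusted p under 0.05 was met by 3350 genes (22.6%), and the lowest adjusted p was 0.0159.

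**Figure D1:**
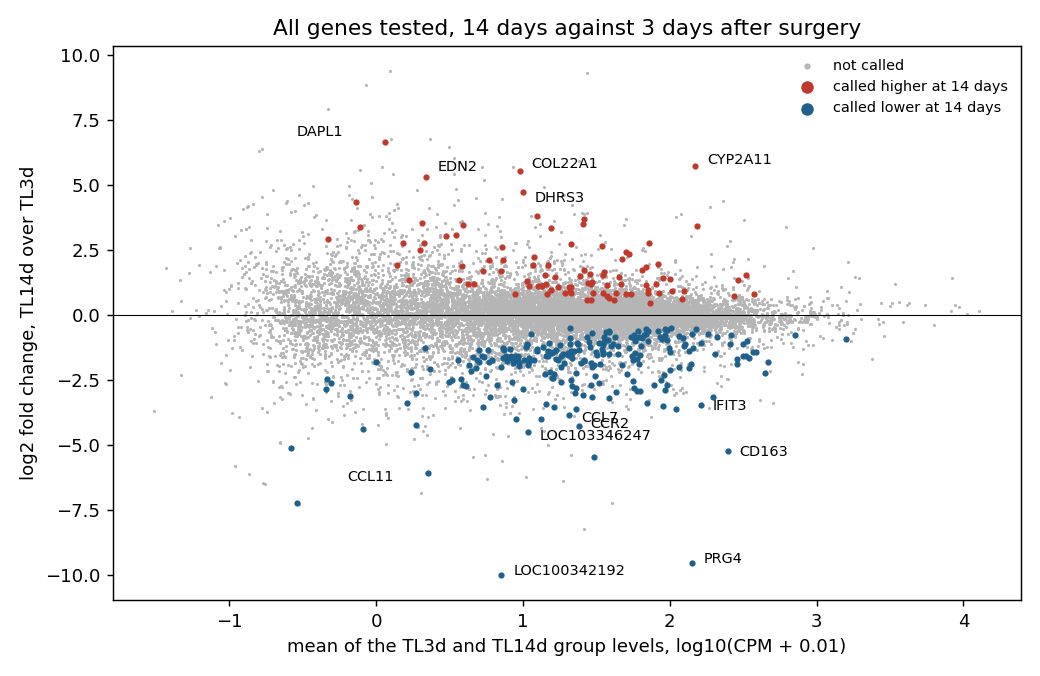
Each point is 1 of 14835 genes tested, with its mean level in the TL3d and TL14d groups on a log10 scale of CPM (x axis) and its log2 fold change at 14 days over 3 days (y axis). The 236 genes called lower (blue) and the 96 called higher (red) at 14 days lie across the whole range of levels, and PRG4 and LOC100342192 lie lowest among those called.

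The number of called genes rested on single libraries. Without TL14d replicate 1, 67 genes were called (0.443% of 15114), with 32 higher (0.212%) and 35 lower (0.232%), and 51 of them were among the 332. Without TL3d replicate 3, 90 genes were called. Without TL3d replicate 1 or TL14d replicate 3, 2 genes were called in each fit. Without TL3d replicate 2, edgeR called 0 genes, with 2357 at an unadjusted p under 0.05, and DESeq2 called 954. Without TL14d replicate 2, the count rose to 584. It also moved with libraries that entered only through the shared spread, to 186 and 92 without control replicates 1 and 2, and to 177 and 193 without TL3h replicates 1 and 3. In each of the 12 edgeR fits that left out 1 library, all 332 genes had an unadjusted p under 0.05. These genes were chosen in the fit on all 12 libraries, so this outcome was nearly fixed in advance. Among all genes tested, 2231 to 3988 met that threshold in these fits. DESeq2 on all libraries called 1850 genes (12.5% of the 14753 that it gave an adjusted p, with 5.7% higher and 6.84% lower), which included all 332.

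Interferon-stimulated genes were the list with the highest share of calls. All 12 members were tested, 7 were called lower at 14 days (58.3%, against 1.59% of all genes) and 0 higher, and the groups did not overlap in 10, all lower (against 14% of all genes). The median log2 fold change was -2.33, beside 0.03 over all genes. The list held 2 calls without TL14d replicate 1, with a median of -2.50, and 3 without TL3d replicate 3, with a median of -2.53. The summed level of the list was 1859 to 2810 CPM in the TL3d libraries, 595 to 626 CPM in the TL14d libraries, and 614 to 1312 CPM in the control libraries.

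IFIT3, which encodes an interferon-induced protein that binds viral RNA complexes (chromosome 18, 37240846 to 37246063, OryCun2.0), was at 335, 317, and 244 CPM in TL3d replicates 1 to 3. It was at 21.5, 32.5, and 27.6 CPM in TL14d replicates 1 to 3. All 3 later libraries lay within or below the control range of 23.7 to 48.0 CPM, and the gene fell by 3.46 on the log2 scale (SE 0.37, adjusted p = 0.0175). IFIT2, a relative in the same cluster, was at 132, 157, and 207 CPM at 3 days and at 11.7, 12.7, and 18.8 CPM at 14 days (log2 fold change -3.52, SE 0.56, adjusted p = 0.0248). A further gene of this family on the same chromosome, LOC100342826, was at 263 to 438 CPM and then at 29.5 to 52.7 CPM (log2 fold change -3.17, SE 0.41, adjusted p = 0.0190). Every one of its count values in the series was a fraction (100%), so its reads may be shared with near-identical copies.

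MX1, a GTPase that blocks virus replication, was at 650.1, 446, and 485 CPM at 3 days and at 215, 131, and 154 CPM at 14 days. The groups did not overlap, and the fold was smaller than for the IFIT genes (log2 fold change -1.66, SE 0.30, adjusted p = 0.0297). ISG15, a ubiquitin-like protein that is attached to other proteins, was at 139, 70.0, and 77.7 CPM and then at 17.95, 17.3, and 13.9 CPM (log2 fold change -2.54, SE 0.48, adjusted p = 0.0344). The lowest control libraries were at 198 CPM for MX1, above TL14d replicates 2 and 3, and at 11.6 CPM for ISG15, below all TL14d libraries. RSAD2, an antiviral enzyme, fell by 2.89 (adjusted p = 0.0263), USP18, the enzyme that takes ISG15 off its targets, fell by 2.68 (adjusted p = 0.0226), and IFI44 fell by 1.57 (adjusted p = 0.0454), all on the log2 scale. CXCL10, an interferon-induced chemokine for T cells, was at 76.4, 142, and 165 CPM at 3 days and at 5.24, 16.3, and 15.1 CPM at 14 days. Its groups were separate by a wide margin (log2 fold change -3.39, SE 0.68, adjusted p = 0.0386). Without TL14d replicate 1, IFIT3 and LOC100342826 passed (adjusted p = 0.0383 and 0.0431), and MX1, ISG15, IFIT2, RSAD2, USP18, IFI44, and CXCL10 did not (0.0515 to 0.118).

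**Figure D2:**
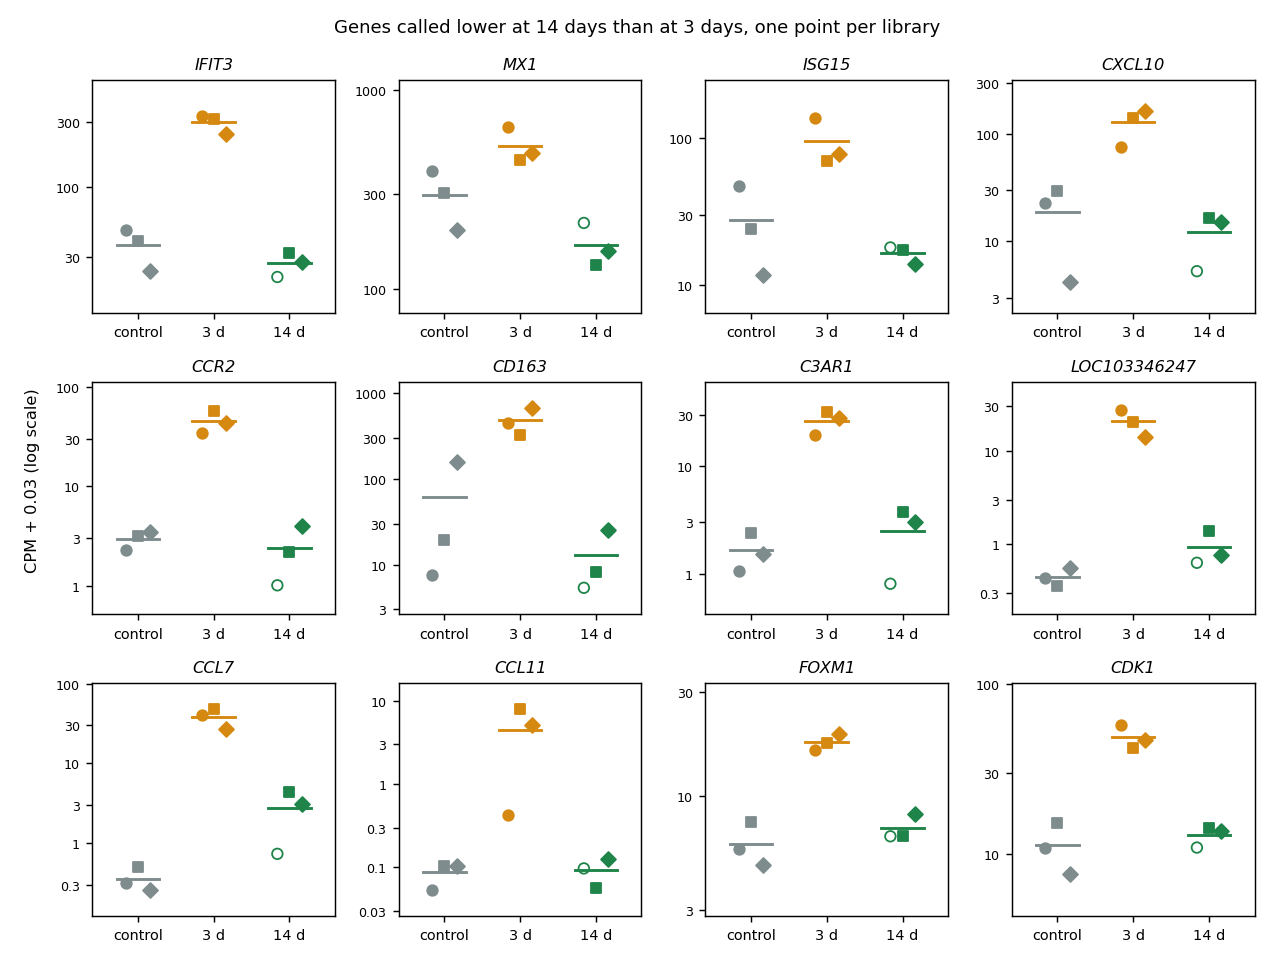
Each panel shows 1 gene in the control, TL3d, and TL14d libraries, with CPM + 0.03 on a log axis, 1 point per library (circle, square, and diamond for replicates 1, 2, and 3, with TL14d replicate 1 open) and a line at the group mean. In all 12 genes the 3 TL14d libraries lie below the 3 TL3d libraries, and TL14d replicate 1 lies beside replicates 2 and 3 for ISG15, FOXM1, and CDK1.

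CCR2 and CD163, receptors of monocytes and macrophages, were among the 10 genes with the largest decreases. Of 19 monocyte and macrophage genes, 3 were called lower (15.8%, against 1.59% of all genes) and 0 higher. The groups did not overlap in 11 lower genes and 1 higher gene (against 14% and 13.4% of all genes), and the median log2 fold change was -1.37. CCR2, the receptor for monocyte chemoattractant proteins, was at 34.3, 58.3, and 43.8 CPM at 3 days. At 14 days it was at 0.975, 2.17, and 3.97 CPM, which is a 19.1-fold decrease (log2 fold change -4.26, SE 0.50, adjusted p = 0.0190). The control libraries were at 2.28 to 3.46 CPM, and the gap between the lowest TL3d and the highest TL14d library was wider than the spread within either group.

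CD163, the scavenger receptor of macrophages for hemoglobin bound to haptoglobin, was at 453, 328, and 673 CPM and then at 5.35, 8.18, and 25.6 CPM (log2 fold change -5.21, SE 1.11, adjusted p = 0.0457). Its control libraries ranged from 7.45 to 157 CPM. CD68, a lysosomal protein of macrophages, was at 189, 194, and 168 CPM and then at 23.97, 81.0, and 34.5 CPM (log2 fold change -1.98, SE 0.42, adjusted p = 0.0444). CSF1R, the receptor for the macrophage growth factor, did not pass, with 274 to 498 CPM at 3 days and 32.9 to 102 CPM at 14 days (log2 fold change -2.45, SE 0.70, adjusted p = 0.0896). Without TL14d replicate 1, CCR2 passed (adjusted p = 0.0240) and CD68 (0.0927) and CD163 (0.119) did not. SPP1, which encodes osteopontin and was a member of the list, lay on the other side, with 305, 338, and 408 CPM at 3 days and 975.1, 890.4, and 935 CPM at 14 days. Its groups were separate, but it did not pass (log2 fold change 1.41, SE 0.39, adjusted p = 0.0827). The TL14d libraries of SPP1 lay within the range of its control libraries.

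The next 5 genes were put together after their calls were seen, and 4 of them were among the 10 largest decreases. C3AR1, the receptor for the complement fragment C3a, was at 19.3, 31.7, and 28.1 CPM at 3 days and at 0.773, 3.67, and 2.99 CPM at 14 days (log2 fold change -3.41, SE 0.53, adjusted p = 0.0243), and was the only 1 of 13 complement genes called (7.69%, against 1.59% of all genes). LOC103346247, named as a leukocyte immunoglobulin-like receptor, was at 27.7, 20.3, and 14.2 CPM and then at 0.605, 1.36, and 0.749 CPM (log2 fold change -4.51, SE 0.44), with the lowest adjusted p of all genes. Since 83.3% of its count values were fractions, its reads may be shared with related receptors. MILR1, an inhibitory receptor of mast cells, was at 13.8 to 20.5 CPM at 3 days and at 0.370 to 1.71 CPM at 14 days (log2 fold change -3.99, SE 0.63, adjusted p = 0.0243). SH2D1B, a signaling adaptor of natural killer and myeloid cells, was at 3.30 to 3.70 CPM and then at 0.0672 to 0.353 CPM (log2 fold change -4.22, SE 0.52, adjusted p = 0.0190). NLRP12, an intracellular sensor of myeloid cells, was near the floor at 14 days, with at most 0.109 CPM against 0.939 to 2.07 CPM at 3 days (log2 fold change -4.37, SE 0.72, adjusted p = 0.0260). These 5 genes passed in the fit without TL14d replicate 1 as well, with adjusted p between 0.0240 and 0.0485, but passing in that fit was part of a rule that named them.

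Among 21 inflammatory cytokines and chemokines, 2 were called lower (9.52%, against 1.59% of all genes), CXCL10 and PTX3, and 0 higher. The groups were separate in 7, all lower (against 14% of all genes). The median log2 fold change was -0.66, -0.52 without TL14d replicate 1, and -1.10 without TL3d replicate 3, with 0 calls in both of these fits. PTX3, a soluble pattern recognition protein, was at 26.4, 55.3, and 45.7 CPM at 3 days and at 2.69, 1.85, and 5.73 CPM at 14 days (log2 fold change -3.63, SE 0.76, adjusted p = 0.0436). Outside that list, CCL7, a CCR2 ligand, was at 40.4, 48.6, and 26.98 CPM and then at 0.706, 4.32, and 3.06 CPM (log2 fold change -3.83, SE 0.62, adjusted p = 0.0248). The eosinophil chemokine CCL11 was at 0.400, 7.91, and 5.07 CPM at 3 days and at or below 0.0977 CPM in every TL14d library (log2 fold change -6.07, SE 1.04, adjusted p = 0.0267). In the fit without TL14d replicate 1, CCL7 passed (adjusted p = 0.0394), and CCL11 (0.0761) and PTX3 (0.118) did not. Both chemokine genes lie close together on chromosome 19.

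The cytokines IL1B, IL6, and TNF had no call, and TL14d replicate 2 held these 3 at the highest levels of the 6 libraries. IL1B, a cytokine of activated myeloid cells, was at 94.3, 49.8, and 26.9 CPM at 3 days and at 0.235, 296, and 12.7 CPM at 14 days. IL6 was at 3.32, 10.1, and 11.1 CPM and then at 0.0336, 18.2, and 1.595 CPM. TNF was at 1.30, 2.16, and 1.62 CPM and then at 0.235, 24.8, and 1.53 CPM. For all 3 genes the TL14d libraries spanned the whole TL3d range, and the 95% interval of the log2 fold change held 0 (from -2.58 to 4.29 for IL1B, from -2.99 to 2.39 for IL6, and from -0.36 to 5.13 for TNF). TL14d replicate 1 held at most 0.235 CPM of any of them, and the control libraries at most 4.01 CPM.

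Neutrophil genes had the lowest median of all lists outside the markers of other tissues, -2.68, but 0 of the 18 were called by edgeR. The groups did not overlap in 8 lower genes and 1 higher gene (against 14% and 13.4% of all genes), and DESeq2 called 6 lower (against 6.84% of all genes by DESeq2). CSF3R, the receptor for the neutrophil growth factor, was at 156, 82.3, and 39.6 CPM at 3 days and at 1.01, 6.63, and 16.8 CPM at 14 days (log2 fold change -3.51, SE 1.21, adjusted p = 0.134). MMP9, a protease stored in neutrophil granules and made by other cells too, was at 121, 302, and 134 CPM and then at 0.235, 1992, and 94.3 CPM (95% interval of the log2 fold change from -2.02 to 5.83). The summed level of the list was 493 to 1222 CPM at 3 days and 15.7, 2290, and 241 CPM at 14 days, where MMP9 alone gave 1992 of the 2290 CPM in replicate 2. The mean of log2(CPM + 0.5) over the list, in which no single gene has that weight, was 4.61, 4.41, and 3.51 at 3 days and 0.048, 3.20, and 2.26 at 14 days, so all TL14d libraries lay below all TL3d libraries.

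Lists for lymphocytes held no edgeR call. The 14 T and NK cell genes had a median log2 fold change of 0.10, with the groups separate in 2, both higher at 14 days, a share near the 13.4% of all genes. The 12 B and plasma cell genes had a median of -0.82. DESeq2 called 1 of the former and 2 of the latter higher and 0 lower (against 5.7% and 6.84% of all genes). Without TL3d replicate 3 these medians were 0.76 and -0.22. PIGR, the epithelial receptor that carries IgA into tears, was listed among the latter and was at 2149, 2577, and 1462 CPM at 3 days and at 4870.0, 6434, and 2916 CPM at 14 days. Its groups were separate and close to the control range of 3228 to 5234 CPM at the later time, without passing the test (log2 fold change 1.20, SE 0.39, adjusted p = 0.115).

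A part of the cell cycle genes fell at 14 days. All 24 members of the list had a negative log2 fold change, against 7060 of 14835 genes tested, with a median of -1.10. Of these, 8 were called lower (33.3%, against 1.59% of all genes), and the groups did not overlap in 20, all lower (against 14% of all genes). The summed level of the list was 1090 to 1332 CPM in the TL3d libraries, 529.9 to 674 CPM in the TL14d libraries, and 310.3 to 564 CPM in the controls. The median was -0.92 without TL14d replicate 1 and -1.08 without TL3d replicate 3, but neither of these fits called a member, while DESeq2 on all libraries called 17 lower (against 6.84% of all genes by DESeq2).

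FOXM1, a transcription factor that drives genes of mitosis, was at 16.3, 17.5, and 19.2 CPM at 3 days and at 6.52, 6.52, and 8.30 CPM at 14 days (log2 fold change -1.31, SE 0.21, adjusted p = 0.0248). CDK1, the kinase that starts mitosis, was at 57.1, 41.8, and 46.8 CPM and then at 10.9, 14.1, and 13.6 CPM (log2 fold change -1.92, SE 0.36, adjusted p = 0.0335). RRM2, a subunit of the enzyme that makes DNA building blocks, was at 224, 127, and 109 CPM and then at 28.04, 34.7, and 30.2 CPM (log2 fold change -2.31, SE 0.45, adjusted p = 0.0349). The 3 TL14d libraries of each gene lay close together, and TL14d replicate 1 did not stand apart. PCNA, the sliding clamp of DNA replication, fell by 1.12 on the log2 scale (adjusted p = 0.0314). MKI67 and TOP2A, common markers of dividing cells, did not pass. MKI67 was at 71.8 to 90.6 CPM at 3 days and at 34.2, 48.7, and 86.9 CPM at 14 days (adjusted p = 0.494), so its groups overlapped through TL14d replicate 3, whereas TOP2A was at 87.5 to 104 CPM and then at 35.8 to 54.1 CPM without overlap (adjusted p = 0.0710).

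The p53 targets, which respond to DNA damage, all had negative log2 fold changes (13 of 13, median -0.72), the groups were separate in 7, all lower (against 14% of all genes), and 1 was called (7.69%, against 1.59% of all genes). This was CCNG1, which encodes cyclin G1, at 814, 819, and 1059.6 CPM at 3 days and at 424, 597, and 539 CPM at 14 days (log2 fold change -0.79, SE 0.17, adjusted p = 0.0494, and 0.106 without TL14d replicate 1). All of its count values were fractions (100%), so its reads may be shared with other genes. CDKN1A, the cell cycle inhibitor p21, was at 1331, 1159, and 885 CPM and then at 142, 969, and 586 CPM (95% interval from -2.25 to 0.27). MDM2, which marks p53 for breakdown, was at 978, 805, and 609.9 CPM and then at 162, 647, and 341 CPM (95% interval from -1.94 to -0.17, adjusted p = 0.160). For CDKN1A and MDM2, TL14d replicate 1 lay close to the control libraries (52.6 to 135 and 157 to 194 CPM), and replicates 2 and 3 lay between the controls and the TL3d range or within the latter.

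The list of enzymes for foreign compounds and vitamin A was the only one with members called higher at 14 days. Of 11 xenobiotic and retinoid enzymes, 2 were called higher (18.2%, against 0.647% of all genes) and 0 lower, the groups did not overlap in 5, all of them higher (against 13.4% of all genes), and the median log2 fold change was 2.15. In the list 9 members had a positive and 2 a negative log2 fold change (lowest -3.11), and the retinoid enzyme DHRS9 was among those 2. Without TL14d replicate 1 the median was 1.41 and 0 were called by edgeR, and DESeq2 on all libraries called 5 higher (against 5.7% of all genes by DESeq2). CYP2A11, a cytochrome P450, was at 2.92, 7.33, and 6.29 CPM at 3 days and at 716, 70.5, and 90.5 CPM at 14 days, beside 434 to 1107 CPM in the controls. The lowest TL14d library was well above the highest TL3d library (log2 fold change 5.73, SE 1.09, adjusted p = 0.0344), and without TL14d replicate 1 the log2 fold change was 3.87 (adjusted p = 0.0567). CYP4A7, a fatty acid hydroxylase, was at 0.512 to 0.862 CPM at 3 days and at 16.1, 2.88, and 2.51 CPM at 14 days (log2 fold change 3.46, SE 0.76, adjusted p = 0.0496), and without TL14d replicate 1 its log2 fold change was 2.05 (adjusted p = 0.0890). Fractions made up 91.7% of the CYP4A7 count values, so its reads may be shared with related genes.

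CYP3A6, outside that list and of the family that breaks down many drugs and steroids, was at 2.75, 3.08, and 5.32 CPM and then at 61.5, 73.7, and 11.003 CPM (log2 fold change 3.71, SE 0.72, adjusted p = 0.0349). LOC100353821, named as cytochrome P450 2F5, was at or below 0.200 CPM at 3 days and at 161, 0.163, and 3.94 CPM at 14 days. Its groups overlapped and it did not pass (adjusted p = 0.0648), and the control libraries were at 77.9 to 198 CPM. DHRS3, which turns retinal back to retinol and was outside that list too, was at 1.05, 0.370, and 0.740 CPM at 3 days and at 40.01, 5.76, and 12.3 CPM at 14 days (log2 fold change 4.73, SE 0.87, adjusted p = 0.0331). Without TL14d replicate 1, DHRS3 (log2 fold change 3.64, adjusted p = 0.0632) and CYP3A6 (3.51, 0.0818) were not called. TL14d replicates 1 and 3 were above all control libraries of DHRS3 (1.75 to 8.88 CPM). For CYP2A11, CYP4A7, LOC100353821, and DHRS3 the highest TL14d value was that of replicate 1.

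**Figure D3:**
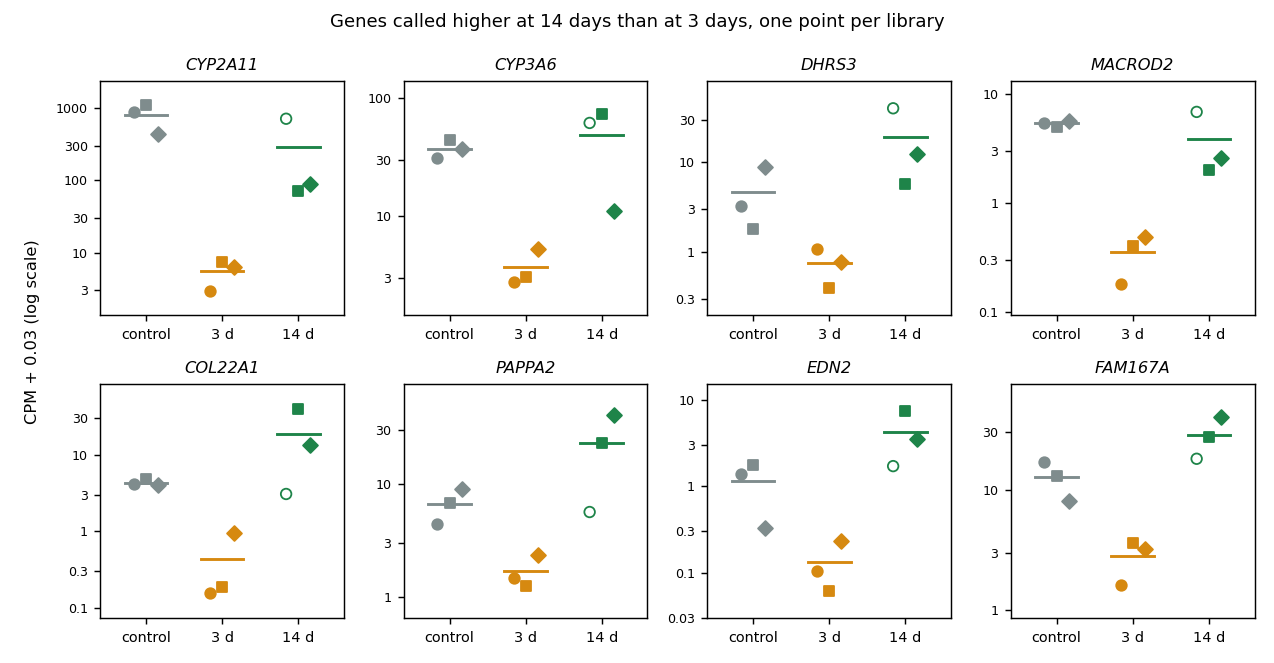
Panels as for the genes called lower, for 8 genes called higher at 14 days, with CPM + 0.03 on a log axis and 1 point per library (replicates 1, 2, and 3 as circle, square, and diamond, TL14d replicate 1 open). All TL14d libraries lie above all TL3d libraries, and TL14d replicate 1 is the highest of its group for CYP2A11, DHRS3, and MACROD2 and the lowest for COL22A1, PAPPA2, EDN2, and FAM167A.

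Other genes called higher at 14 days had their highest levels in TL14d replicates 2 and 3. COL22A1, a collagen of tissue junctions, was at 0.1249, 0.154, and 0.911 CPM at 3 days and at 3.03, 39.7, and 13.2 CPM at 14 days (log2 fold change 5.55, SE 1.04, adjusted p = 0.0339). The control libraries were at 3.96 to 4.73 CPM, below TL14d replicates 2 and 3 and above replicate 1. PAPPA2, a protease that frees insulin-like growth factors from their binding proteins, was at 1.42, 1.20, and 2.33 CPM and then at 5.61, 23.1, and 40.8 CPM (log2 fold change 3.81, SE 0.72, adjusted p = 0.0344). EDN2, an endothelin peptide, was at 0.0308 to 0.199 CPM and then at 1.68, 7.499, and 3.52 CPM (log2 fold change 5.33, SE 0.95, adjusted p = 0.0296). FAM167A was at 1.599, 3.57, and 3.19 CPM and then at 17.99, 27.4, and 39.9 CPM (log2 fold change 3.35, SE 0.51, adjusted p = 0.0243). These 4 genes also passed without TL14d replicate 1, with adjusted p between 0.0383 and 0.0437, but passing in that fit was part of a rule that named them. Without TL3d replicate 3, COL22A1 passed (log2 fold change 7.03, adjusted p = 0.0434). EDN2 (0.0521), PAPPA2 (0.0586), and FAM167A (0.0521) did not pass in that fit.

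A further 3 genes among the 10 largest increases had low levels at 3 days. MACROD2, which removes ADP-ribose from proteins, was at 0.150 to 0.455 CPM at 3 days and at 6.79, 1.98, and 2.57 CPM at 14 days (log2 fold change 3.53, SE 0.54, adjusted p = 0.0243). CNTNAP2, a cell adhesion protein of axons, was at 0.0308 to 0.0854 CPM and then at 2.56, 0.353, and 1.24 CPM (log2 fold change 4.34, SE 0.86, adjusted p = 0.0357). With TL14d replicate 1 left out, MACROD2 was called with a log2 fold change of 2.80 (adjusted p = 0.0383), and CNTNAP2 was not called (3.54, 0.0863). DAPL1 held 2 counts in the 3 TL3d libraries together and 217 in the TL14d libraries, a ratio of 120.1 with an exact 95% counting interval from 32.8 to 998 (adjusted p = 0.0357). Its TL14d libraries were at 0.303, 1.55, and 4.92 CPM, so their spread was wide.

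Most matrix genes had no call, and their levels varied widely within groups. Of 19 collagen chains, 16 processing and crosslinking genes, 18 matricellular and provisional matrix genes, and 13 myofibroblast and smooth muscle genes, edgeR called 0 in either direction, and the median log2 fold changes were 0.40, 0.27, 0.41, and -0.04. DESeq2 called 1, 0, 2, and 1 of their members, against 12.5% of all genes. The called collagen gene COL22A1 is not in the list of chains. COL1A1, the main fibrillar collagen, was at 342, 3452, and 19531 CPM at 3 days and at 5981, 3035, and 16898 CPM at 14 days (95% interval of the log2 fold change from -2.40 to 2.70). DCN, the collagen-binding proteoglycan decorin, was at 216, 843, and 2834 CPM and then at 2419, 291, and 1931 CPM (95% interval from -1.93 to 2.43). LOX, which crosslinks collagen, was at 8.17, 167, and 1239 CPM and then at 112, 76.7, and 419 CPM (95% interval from -4.30 to 1.86). In all 3 genes TL3d replicate 1 was lowest and replicate 3 highest, in the same order as the summed level of 13 fibroblast and pericyte genes (750.4, 849, and 1583 CPM), and the part of that in these results was not tested. Without TL3d replicate 3, the medians of the 4 lists, in the order given, were 2.14, 1.34, 0.95, and 1.29, with 0 calls.

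PRG4, which encodes the lubricating proteoglycan lubricin, was the only gene called in the list of 14 proteoglycans and elastic fibres (7.14%, against 1.59% of all genes). It was at 1.65, 72.6, and 771 CPM at 3 days and at 0.0336, 0.109, and 1.01 CPM at 14 days and at 0.150 to 0.332 CPM in the controls. The groups were separate but the TL3d libraries were widely spread (log2 fold change -9.53, SE 2.10, adjusted p = 0.0494), and without TL14d replicate 1 the adjusted p was 0.129. Without TL3d replicate 3, the highest library, the log2 fold change was -6.60 (adjusted p = 0.0711).

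Scar and contraction genes split the TL14d group. TNC, a matrix protein of healing wounds, was at 115, 630.4, and 929 CPM at 3 days and at 0.538, 1622, and 609.6 CPM at 14 days. THBS1, which activates latent TGF-beta, was at 333, 1334, and 1626 CPM and then at 6.15, 1819.5, and 2507 CPM. ACTA2, the smooth muscle actin of myofibroblasts, was at 21.1, 119.7, and 450.01 CPM and then at 5.14, 142, and 352 CPM. In each of these genes TL14d replicate 1 was at or near the control range (0.356 to 3.16, 3.75 to 58.0, and 6.19 to 17.9 CPM), while replicates 2 and 3 were within the TL3d range or above it. The 95% interval of the log2 fold change held 0 for each (from -2.95 to 3.78 for TNC, from -2.75 to 3.55 for THBS1, and from -2.86 to 2.37 for ACTA2). The ligands TGFB1 (21.8 to 31.2 CPM at 3 days and 6.05, 36.6, and 14.9 CPM at 14 days) and TGFB2 (22.9 to 45.7 CPM and then 6.39, 78.8, and 44.4 CPM) overlapped between the groups.

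**Figure D4:**
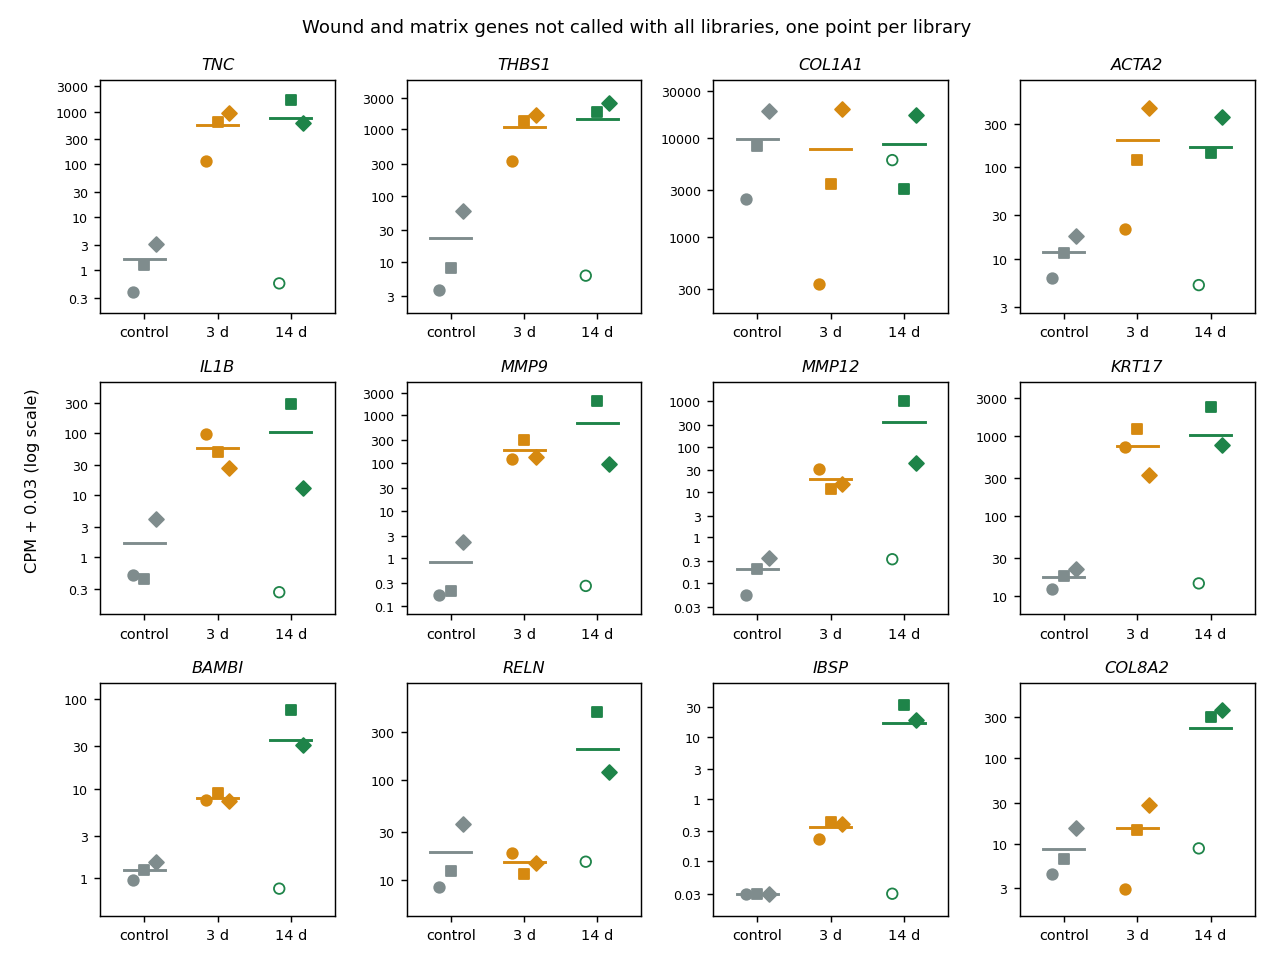
Panels as above, with CPM + 0.03 on a log axis, for 12 wound and matrix genes that were not called with all libraries. In every panel but COL1A1 the open circle (TL14d replicate 1) lies far below TL14d replicates 2 and 3 and beside the control libraries.

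Several genes passed in the fit without TL14d replicate 1 and not with it, and TL14d replicates 2 and 3 were above all TL3d libraries in each. BAMBI, a decoy receptor for TGF-beta family ligands, was at 7.39, 8.96, and 7.17 CPM at 3 days and at 74.3 and 30.4 CPM in TL14d replicates 2 and 3, but at 0.740 CPM in replicate 1 (adjusted p = 0.238 with it and 0.0407 without). IBSP, a sialoprotein of mineralizing tissue, was at 0.200 to 0.400 CPM at 3 days, at 31.6 and 18.5 CPM in replicates 2 and 3, and at 0 in replicate 1 and all control libraries (0.165 and 0.0383). RELN, a secreted matrix protein also made by lymphatic vessels, was at 11.5 to 18.6 CPM and then at 15.2, 476, and 122 CPM (0.0768 and 0.0431). The potassium channel gene KCNMA1 was at 0.647 to 1.88 CPM and then at 0.572, 11.1, and 25.1 CPM (0.0991 and 0.0411). COL8A2, a short-chain collagen, was at 2.87 to 28.001 CPM and then at 8.74, 299, and 368 CPM and passed in neither fit (0.100 and 0.0583). COL8A2 is also 1 of the 5 cornea markers tested. Their mean log2(CPM + 0.5) was 4.38, 5.60, and 6.25 at 3 days and 5.24, 7.82, and 7.22 at 14 days. That mean was highest in the same replicates 2 and 3, but COL8A2 itself enters it, so the 2 are not independent. The part of corneal tissue in these results was not tested.

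No protease that cuts matrix was called among the metalloproteinases and their inhibitors (0 of 17 by edgeR, median log2 fold change -0.57, groups separate in 3, all lower, a share near the 14% of all genes). MMP13, a collagenase, was at 353, 254, and 19.5 CPM at 3 days and at 0.0336, 81.6, and 2.12 CPM at 14 days. MMP3, which cuts many matrix proteins, was at 41.9, 28.8, and 10.05 CPM and then at 0, 6.19, and 1.24 CPM, separate but not called (adjusted p = 0.140). MMP12, an elastase of macrophages, was at 32.6, 11.7, and 14.7 CPM and then at 0.303, 1019.6, and 43.5 CPM (adjusted p = 0.193). MMP19 was at 27.98, 49.3, and 50.3 CPM and then at 7.97, 24.2, and 17.5 CPM without overlap (adjusted p = 0.126). For these genes the TL14d libraries ranged from the control level in replicate 1 to the highest values of the 6 libraries for MMP9 and MMP12 in replicate 2. Per transcript length, in the deposited FPKM, the gelatinase MMP2 had the highest TL14d median of the list (325 FPKM, against 284 FPKM at 3 days), and MMP13 had medians of 79.95 FPKM at 3 days and 0.648 FPKM at 14 days. These levels carry no test.

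**Figure D5:**
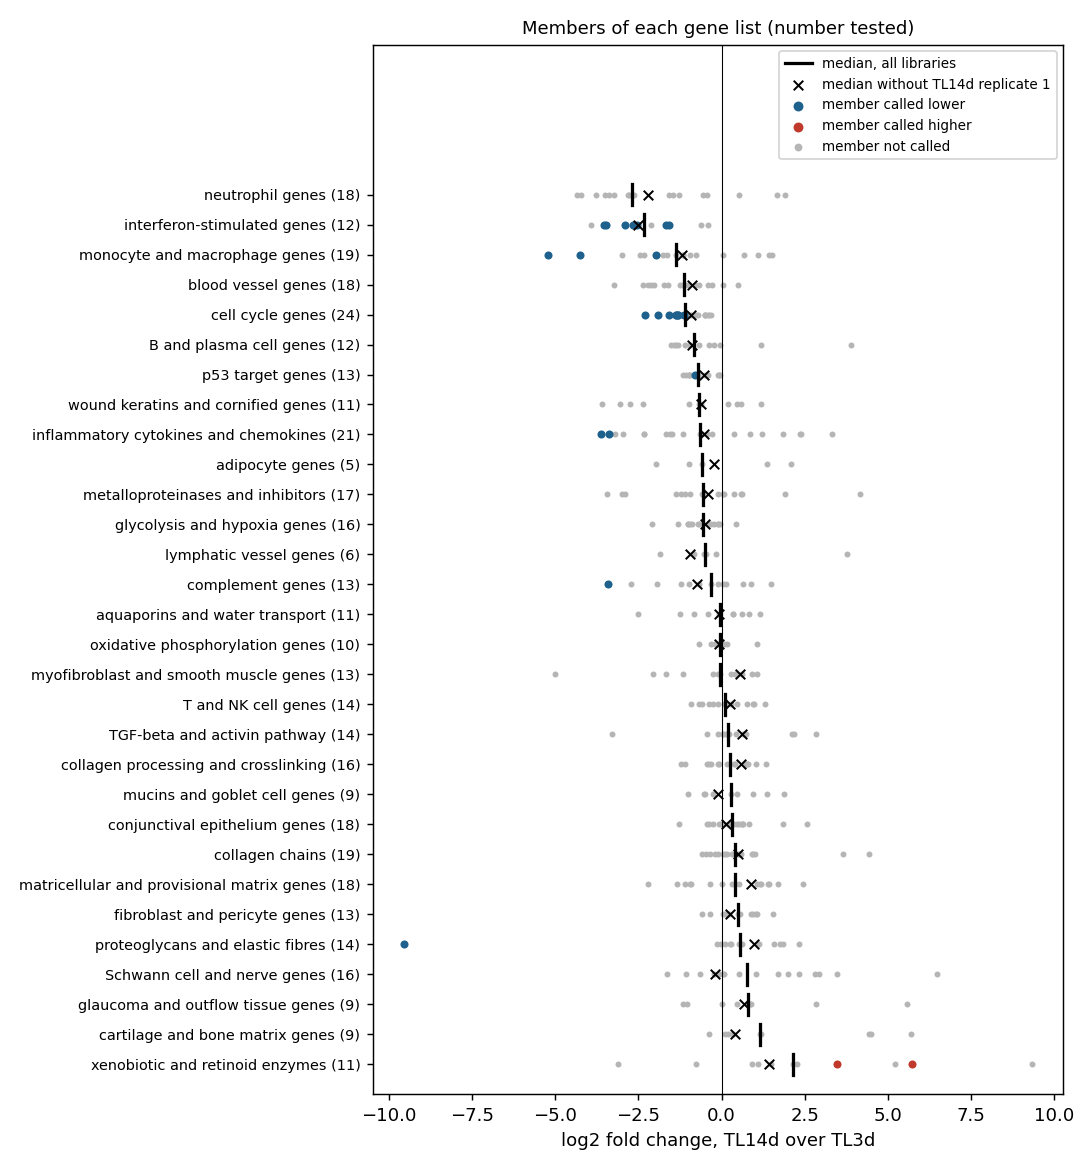
Each row is a gene list with the number of members tested, each point a member's log2 fold change at 14 days over 3 days (blue called lower, red called higher, gray not called), with the median over all libraries as a bar and the median without TL14d replicate 1 as a cross. Calls gather among the interferon-stimulated, cell cycle, and monocyte lists on the lower side, and the xenobiotic and retinoid enzymes are the only list shown with members called higher.

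Among epithelial genes edgeR called 0 of 18 conjunctival epithelium genes, 0 of 11 wound keratins and cornified genes, and 0 of 9 mucins and goblet cell genes. DESeq2 called 2 of the first higher, 2 of the second lower, and 0 of the third, against 5.7% higher and 6.84% lower among all genes by DESeq2. KRT5, the keratin of basal cells, was at 9069.9, 8648, and 3596 CPM at 3 days and at 2808, 8580.1, and 5122 CPM at 14 days (95% interval of the log2 fold change from -1.40 to 0.66). KRT15, a keratin of resting basal cells, was at 159, 219, and 437 CPM and then at 3799, 386, and 683 CPM, beside 1447 to 2743 CPM in the controls (adjusted p = 0.0969). The wound keratin KRT17 was at 725, 1219, and 328 CPM and then at 14.4, 2317, and 779 CPM, and KRT16 was at 167, 109.9, and 12.9 CPM and then at 0.168, 20.9, and 2.77 CPM (adjusted p = 0.842 and 0.140). TL14d replicate 1 was above all control libraries for KRT15 and within their range for KRT17 (12.3 to 21.6 CPM), apart from replicates 2 and 3 in both. MUC4, a membrane mucin of the tear film surface, was at 2060.1, 3003, and 1384 CPM and then at 1858, 1503, and 1116 CPM (95% interval from -1.23 to 0.18).

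LOC100355142, named as a transmembrane serine protease 11B-like gene of the family found in squamous epithelia, was called and had all 3 TL14d libraries low. It was at 102, 50.6, and 27.7 CPM at 3 days and at 0.235, 3.10, and 0.684 CPM at 14 days (log2 fold change -5.47, SE 0.85, adjusted p = 0.0243). The controls were at 0.665 to 1.03 CPM, and without TL14d replicate 1 the adjusted p was 0.0411.

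Vessel genes had negative log2 fold changes in most members and no call by edgeR (0 of 18 blood vessel genes, 16 with a negative log2 fold change, median -1.14, or -0.75 without TL3d replicate 3, and 6 called lower by DESeq2, against 6.84% of all genes). ANGPT2, which loosens vessel walls during sprouting, was at 33.2, 21.4, and 15.8 CPM at 3 days and at 4.67, 5.19, and 6.38 CPM at 14 days (log2 fold change -2.11, SE 0.51, adjusted p = 0.0630). PECAM1, an adhesion molecule of endothelium that leukocytes also carry, was at 170.2, 196, and 221 CPM and then at 17.99, 27.8, and 68.1 CPM (adjusted p = 0.168). VWF, made by endothelium and platelets, was at 63.3, 50.9, and 244 CPM and then at 27.5, 45.6, and 152 CPM with overlap (adjusted p = 0.677). LYVE1, a receptor of lymphatic vessels and some macrophages, was at 80.3 to 109 CPM and then at 39.2, 2.26, and 41.5 CPM (adjusted p = 0.368). The groups were separate in 6 of the 18 blood vessel genes, all lower, with ANGPT2 and PECAM1 among them, and in LYVE1 (against 14% of all genes). GAPDH, a glycolytic enzyme often used as a reference, was at 1774, 1829, and 1482 CPM at 3 days and at 649, 1114, and 861 CPM at 14 days, separate but not called (log2 fold change -0.95, SE 0.27, adjusted p = 0.0868).

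Markers of other tissues, of the outflow tissue, and of cartilage and bone gave no call by edgeR. DESeq2 called 2 of 5 cornea markers, 1 of 9 glaucoma and outflow genes, and 1 of 9 cartilage and bone genes higher, against 5.7% of all genes. ACTA1, the skeletal muscle actin, was at 0.450, 0.862, and 239 CPM at 3 days and at 0, 0.761, and 0.814 CPM at 14 days, so its log2 fold change of -7.22 rested on TL3d replicate 3. TYR, the pigment enzyme, was at 0.303, 6.004, and 0.130 CPM at 14 days and at or below 0.114 CPM at 3 days (adjusted p = 0.0958). MYOC, which encodes the outflow tissue protein myocilin, held 3 counts in the TL3d libraries together and 136 in the TL14d libraries, a ratio of 50.2 with an exact 95% counting interval from 16.8 to 246, but its TL14d libraries were at 2.89, 0.0815, and 1.53 CPM and it did not pass (adjusted p = 0.0807). COL2A1, the cartilage collagen, was at 0.0924 to 0.626 CPM and then at 16.5, 1.82, and 2.28 CPM, beside 2.92 to 67.0 CPM in the controls (adjusted p = 0.156).

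A pair of genes among the 10 largest changes had counts that need care. LOC100352536, named as a 60S ribosomal protein L32 gene (chromosome 20, 18517484 to 18517970, OryCun2.0), was at 3.92, 4.16, and 4.47 CPM at 3 days and at 8.17, 53.6, and 79.3 CPM at 14 days (log2 fold change 3.49, SE 0.62, adjusted p = 0.0291). A gene of the same name on chromosome 1, LOC100345217, was at 4.10 to 4.25 CPM and then at 5.95, 23.3, and 29.8 CPM (log2 fold change 2.23, SE 0.46, adjusted p = 0.0406). RPL32 itself, on chromosome 9, was at 388, 383, and 358 CPM and then at 532, 192, and 268 CPM (95% interval from -0.86 to 0.49). All count values of these 3 genes were fractions (100%), so how their shared reads were divided is uncertain. Among other genes reported above, fractions made up all values of COL1A1, KRT5, KRT15, PIGR, MUC4, and GAPDH (100%). For the called genes MX1 and DHRS3 they made up 83.3% and 75%, so the same limit may hold there.

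LOC100342192, named as the acyl-coenzyme A synthetase ACSM2B (chromosome 6, 7931736 to 7956925), was at 16.2, 17.9, and 8.74 CPM at 3 days and at 0, 0.0272, and 0 CPM at 14 days. It held 1536 counts in the TL3d libraries together and 1 count in the TL14d libraries, a ratio of 1388 with an exact 95% counting interval from 249 to 54857 (adjusted p = 0.0357, and 0.104 without TL14d replicate 1). The control libraries were at 3.69 to 26.2 CPM and the TL3h libraries at 0, 2.57, and 0.0732 CPM, so levels at or near 0 were also met at 3 hours. Its count values were fractions in 75% of the libraries, so reads may be shared with related genes.

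The pathway names in the deposited gene table, held by 5977 of the genes tested, were read beside these lists. Of the pathways with at least 30 genes tested, the shares called lower were highest for p53 signaling (7 of 67, 10.4%, against 1.59% of all genes), Fanconi anemia (5 of 49, 10.2%), and RIG-I-like receptor signaling (5 of 50, 10%), and the cell cycle pathway had 11 of 124 (8.87%). The share called higher was highest for retinol metabolism (4 of 47, 8.51%, against 0.647% of all genes). These pathways share genes, they were picked by their shares, and no test was made on them.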

How the data were processed

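RNA was sequenced from 12 libraries of rabbit conjunctiva, 3 per group, and the 3 TL3d and 3 TL14d libraries were compared. The authors mapped paired reads with STAR (2.6.0c in the submitters' processing notes) against the OryCun2.0 assembly and made values per gene with GeneData Profiler Genome. The deposited gene table holds estimated counts, unscaled for depth, with fractions among 23.4% of the values, and FPKM made by the authors, which were used only to set levels of metalloproteinases side by side. How reads with several placements and read strand were treated is not given in the sources used here. A transcript table of 38710 rows was not used, and 0 columns of the gene table were left unmapped.

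The estimated counts were rounded. Genes were kept by filterByExpr (minimum count 10, minimum total 15), scaled by TMM, and fitted with edgeR 4.0.16 (glmQLFit and glmQLFTest, prior count 0.125, R 4.3.3) on all 12 libraries, which share 1 estimate of the spread. The p-values were two-sided and adjusted by the Benjamini-Hochberg method over all genes tested, with a threshold of 0.05. The SE and 95% interval of a log2 fold change came from the fit. The fit was tested on simulated data first. Alternatives used DESeq2 1.42.0, limma 3.58.1, other scalings, filters and libraries, and a replicate block. Gene models and coordinates are those of the deposited table, where unplaced sequence is joined into 1 virtual chromosome.

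The genes named were the 10 largest fitted increases and decreases among called genes whose mean reached 1 CPM and whose groups did not overlap, the same without TL14d replicate 1, and for each list its first 2 tested members and the members with the smallest p in each direction. IFIT2, RSAD2, IFI44, USP18, CDK1, RRM2, PCNA, PTX3, CYP4A7, LOC100345217, MMP2, and RPL32 were chosen after their values were seen. Some genes that the rule named are not reported here. The comparison, the members, and the lists were chosen with earlier results of these data known. Only right eyes were operated on and the study averaged over 3 eyes, so the 3 libraries of a TL group were taken as 3 animals. No 2 libraries of a group agreed within sampling noise. The floor for a gene with no reads was set at 3 counts (0.0749 to 0.101 CPM in the 6 libraries). The floor and the intervals of count ratios cover counting error only.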

Additional observations from a re-analysis of the deposited data

How the results depend on the processing

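Of the 332 genes, 186 were called in all 9 fits on 12 libraries. The count of calls depended on the fit. DESeq2 called 1850 genes (841 higher and 1009 lower, so 45.5% higher against 28.9%) and edgeR's likelihood-ratio test 1106 (420 and 686, 38% higher), while a fit on only the 6 libraries called 15 (0 and 15). Calls lay within 1.5 times of 332 with DESeq2 size factors in edgeR (323), library size only (270), no filter (251), a stricter filter (347), and limma-trend (477). With 1 library left out at a time, edgeR called 0 to 584 genes (0 to 239 higher and 0 to 345 lower), and every DESeq2 fit of this kind called more. DESeq2 called 1206 genes (479 higher and 727 lower), 2766 (1200 and 1566), and 1453 (647 and 806) without TL14d replicates 1, 2, and 3, and 851 (312 and 539), 954 (368 and 586), and 2140 (1096 and 1044) without TL3d replicates 1, 2, and 3. The edgeR count was 2 without TL14d replicate 3 or TL3d replicate 1, 0 without TL3d replicate 2, 67 without TL14d replicate 1, 90 without TL3d replicate 3, 584 without TL14d replicate 2, 186 and 92 without control replicates 1 and 2, and 177 and 193 without TL3h replicates 1 and 3. The cause was not tested. The DESeq2 fits with a library left out, the list values without TL3d replicate 3, and the list calls by DESeq2 were chosen after seeing the data.

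With the replicate block, 288 genes were called (74 higher and 214 lower), of which 220 were among the 332. Deviations of same-numbered TL3d and TL14d libraries from their group means correlated at 0.03, 0.26, and 0.42 across genes. Each TL14d library correlated best with the TL3d library of its number, narrowly so for replicates 1 and 2. TL3d replicate 1 correlated best with TL14d replicate 2 (0.24). Deviations from a mean of 3 libraries are tied to each other, so these values cannot decide whether libraries are paired. The labels pair no libraries, and the block was not used for the calls.

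Some genes that were not called turned their direction on the log2 scale. With limma-trend these were IL1B (-2.28), MMP9 (-2.15), LOX (0.36), TNC (-2.28), THBS1 (-1.56), TGFB2 (-0.11), and KRT17 (-1.16), and with the replicate block THBS1 (-0.10). With 1 library left out in edgeR, the range of the log2 fold change crossed 0 for IL1B (-3.14 to 1.44), MMP9 (-1.97 to 2.49), LOX (-2.32 to 1.21), TNC (-0.87 to 0.999), THBS1 (-0.26 to 0.98), TGFB2 (-0.33 to 0.95), KRT17 (-0.93 to 1.03), IL6 (-3.31 to 0.28), DCN (-0.25 to 1.55), ACTA2 (-1.42 to 1.24), TGFB1 (-1.30 to 0.00087), TNF (-0.93 to 2.96), RPL32 (-0.71 to 0.088), COL1A1 (-0.79 to 2.19), and VWF (-1.70 to 0.39). The values on the other side of 0 in the DESeq2 fits with 1 library left out were those of IL1B (-3.16), MMP9 (-1.99), LOX (1.18), TNC (-0.88 and -0.058), THBS1 (-0.25 and -0.036), TGFB2 (-0.35), KRT17 (-0.96), IL6 (0.17 and 0.29), DCN (-0.25 and -0.23), ACTA2 (0.33 and 1.22), TGFB1 (0.0090), TNF (-0.95), RPL32 (0.072), COL1A1 (-0.78, -0.41, and -0.20), and VWF (0.37). The cause was not tested.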
